A study of Drosophila melanogaster with 8 samples.

Results

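The genes described here encode parts of the sarcomere, the contractile unit of striated muscle, and were followed in Drosophila samples labelled as Kenyon neurons, the intrinsic cells of the mushroom body (MB). The list held 10 genes: Mlc1, Mlc2, Mhc, fln, Act57B, Act88F, Tm2, up, TpnC4 and TpnC41C. Members were all probe sets whose only gene symbol in the array annotation was one of these. This gave 1 probe set for each of 8 genes, out of 18769 probe sets tested and 11982 genes named by them. Mhc, the muscle myosin heavy chain, and Act57B, a muscle actin, had no probe set under this rule and were not analysed here.

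The samples came from a study of environmental enrichment and the histone acetyltransferase (HAT) Tip60. In every group the OK-107 GAL4 driver expressed UAS-mCD8-GFP in the MB, and GFP-positive cells were sorted from brains by FACS. Control flies carried no further UAS transgene, while dTip60E431Q flies also expressed a HAT-defective Tip60 in the same cells from UAS. Newly eclosed flies spent 5 days either alone (ISO) or in a group of 30 flies of both sexes (EE). There were 2 arrays in each of 4 groups: control ISO, control EE, dTip60E431Q ISO and dTip60E431Q EE. The labels give an age of 5 days for 7 arrays and of 6 days for dTip60E431Q ISO replicate 2. Whether the arrays within a group stem from different pools of flies is not stated, so the p-values cover only array-to-array spread, and that spread may be technical. The study also describes expression of the driver outside the MB, in the optic lobes, the pars intercerebralis and the suboesophageal ganglion.

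In a sarcomere, thick filaments of myosin slide along thin filaments of actin. Contraction starts when calcium binds troponin C, which together with troponin T, troponin I and tropomyosin controls the access of myosin to actin. Insects build different fibre types from different isoforms. Act88F, TpnC4 and fln are known for the fibrillar indirect flight muscle of the thorax, and TpnC4 is the troponin C isoform tied to stretch activation there. Neurons form no sarcomeres, although they use non-muscle actins and myosins.

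Values are the log2 signals of the authors' RMA summary, so a log2 difference of 1 stands for a 2-fold change. Median signals of the 8 arrays lay between 6.41 and 6.50. The log2 signal of Tip60, read as a check of genotype, averaged 8.24 ± 0.24 in control ISO and 8.14 ± 0.064 in control EE (SD, n = 2 arrays each). It reached 9.64 ± 0.0018 in dTip60E431Q ISO and 10.01 ± 0.19 in dTip60E431Q EE (SD, n = 2 each), and the probe set does not separate the transgene from the endogenous gene. The arrays of dTip60E431Q ISO lay closest together, with an SD of their differences over all probe sets of 0.183 against 0.358 to 0.479 in the other groups. Markers of other cells had signal on every array. The glial gene repo lay between 10.10 and 10.29. The photoreceptor genes Arr1 and inaD lay between 10.98 and 12.36 and between 8.50 and 10.73. Of the Kenyon neuron list, ey lay between 7.35 and 8.06 and sNPF between 10.51 and 11.04. Signals of different probe sets cannot be set against each other, so these ranges do not rank the cell types. For the fat body list (13 of 16 genes measured), the mean log2 signal was 9.07 to 9.37 in control ISO, 10.63 to 10.65 in control EE, 10.55 to 10.58 in dTip60E431Q ISO and 9.20 to 9.66 in dTip60E431Q EE. The midgut list (13 of 14 genes) lay at 8.30 on both dTip60E431Q ISO arrays and between 4.28 and 5.20 on the others. RMA gives no zero, so no marker can be called absent. In bulk RNA of this kind, fewer cells of a type and less RNA per cell cannot be told apart.

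Of the 8 sarcomere genes, TpnC4 and Act88F varied most between arrays, and fln varied least. TpnC4 had an SD of 1.54 log2 units over the 8 arrays and Act88F of 1.18. For the others the SD was 0.36 for Mlc1, 0.40 for Mlc2, 0.42 for Tm2, 0.41 for up, 0.43 for TpnC41C and 0.21 for fln. No sarcomere gene passed the test after adjustment in any of the 5 comparisons (limma, Benjamini-Hochberg adjusted p under 0.05 over all probe sets and a change of at least 1.3-fold). The differences below are therefore given with unadjusted and adjusted p-values, and none is a call.

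**Figure D1:**
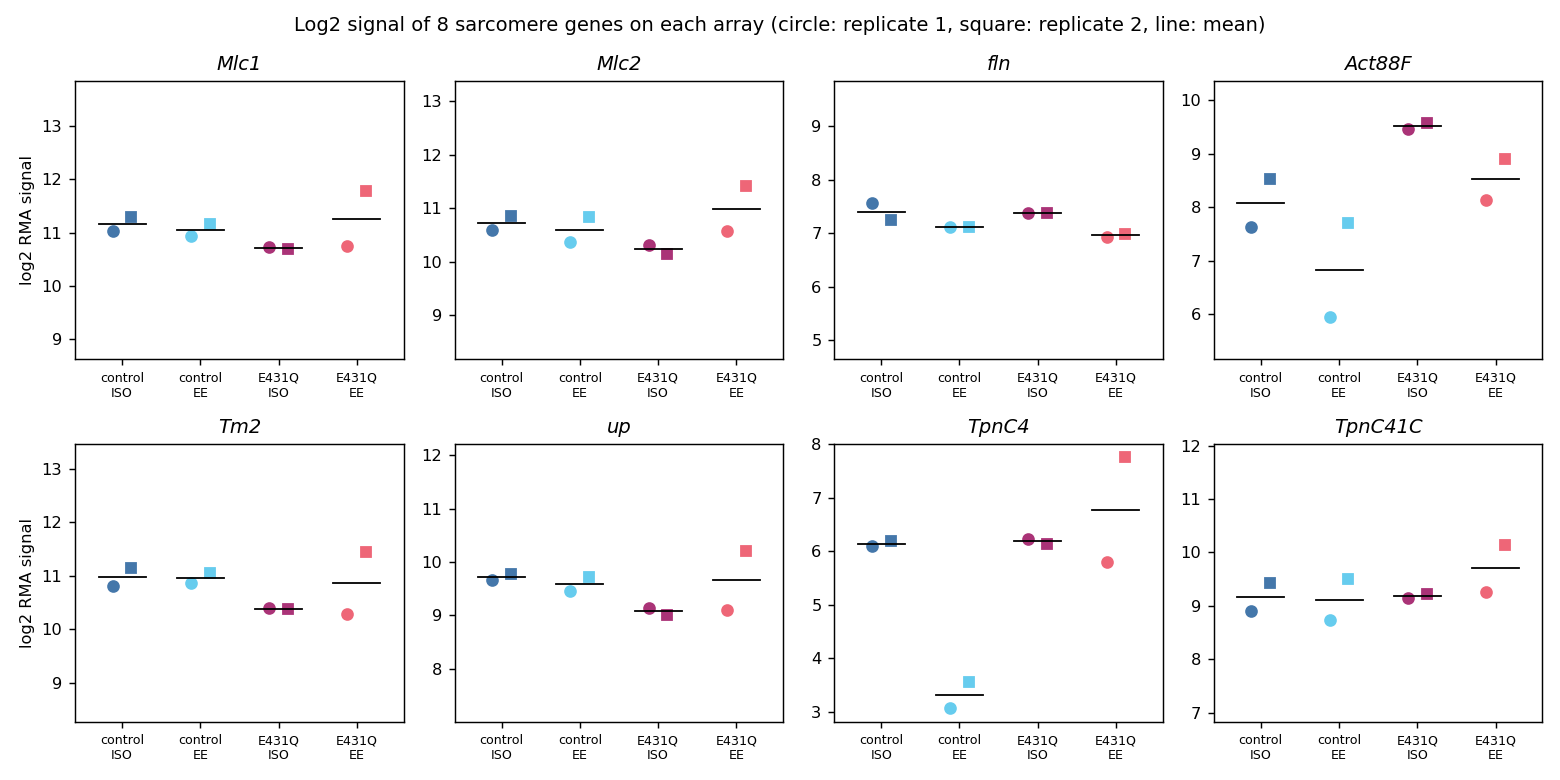
Log2 RMA signal (vertical axis) of the 8 sarcomere genes in the 4 groups (horizontal axis). Circles are replicate 1, squares replicate 2 and lines the mean of the 2 arrays, and every panel spans the same number of log2 units. TpnC4 sat at 3.06 and 3.56 in control EE and at 5.79 or above on the other 6 arrays, and Act88F was highest in dTip60E431Q ISO.

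TpnC4, the calcium sensor of stretch-activated flight muscle, had its lowest signal in control EE flies. The log2 signal read 6.10 and 6.19 in control ISO and 3.06 and 3.56 in control EE. In dTip60E431Q ISO it was 6.23 and 6.15, and in dTip60E431Q EE it was 5.79 and 7.76. Both control EE arrays thus lay below all 6 other arrays, which ranged from 5.79 to 7.76.

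In control flies the TpnC4 signal was 7.11-fold lower under EE than under ISO, a log2 difference of -2.83 (SE 0.55, 95% confidence interval -4.15 to -1.52, limma unadjusted p = 0.00145, adjusted p = 0.363). In dTip60E431Q flies EE minus ISO was 0.59 (SE 0.55, interval -0.72 to 1.91, adjusted p = 0.855), and the groups overlapped. The difference between these responses, tested as the interaction of genotype and housing, was 3.42 (SE 0.78, interval 1.56 to 5.28, unadjusted p = 0.00341, adjusted p = 0.185). Under EE the TpnC4 signal was 11.0-fold higher in dTip60E431Q than in control (log2 difference 3.47, SE 0.55, interval 2.15 to 4.78, adjusted p = 0.109). Under ISO the genotypes differed by 0.04 (interval -1.27 to 1.36, adjusted p = 0.986).

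The TpnC4 result depended on the spread between the dTip60E431Q EE arrays, which were 1.97 apart for this gene. Without dTip60E431Q EE replicate 1 the drop in control EE kept its size of -2.83 and had an adjusted p of 0.0129, as it had without replicate 2. The genotype difference under EE was then 4.45 without replicate 1 (adjusted p = 0.0129) and 2.48 without replicate 2 (adjusted p = 0.0480), and the interaction 4.41 (adjusted p = 0.00497) and 2.44 (adjusted p = 0.0385). In these fits dTip60E431Q EE has 1 array, its spread is taken from the 3 groups with both arrays, and the gap of 1.97 no longer enters the spread. Leaving out any of the other 6 arrays gave no call for TpnC4 in limma. TpnC4 was also the 1 member whose average signal fell short of 6.46, the median of probe set means. The fat body list was high in control EE, where TpnC4 was low, and also high in dTip60E431Q ISO, where TpnC4 was not low, and its part in the result was not tested.

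TpnC41C, another troponin C isoform, ran differently. Its log2 signal was 8.90 and 9.42 in control ISO and 8.73 and 9.51 in control EE. It was 9.15 and 9.22 in dTip60E431Q ISO and 9.26 and 10.14 in dTip60E431Q EE. The control groups overlapped, and EE minus ISO in control was -0.04 (SE 0.36, interval -0.89 to 0.81, limma adjusted p = 1.00). In dTip60E431Q both EE arrays were above both ISO arrays, with a difference of 0.52 (SE 0.36, interval -0.33 to 1.37, adjusted p = 0.791). The difference was 0.95 without dTip60E431Q EE replicate 1 and 0.079 without replicate 2. TpnC4 and TpnC41C lie on the same chromosome arm with 18 annotated genes between them.

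Troponin T, encoded by up, anchors the troponin complex to tropomyosin. The up log2 signal was 9.66 and 9.78 in control ISO, 9.45 and 9.72 in control EE, 9.13 and 9.01 in dTip60E431Q ISO, and 9.10 and 10.21 in dTip60E431Q EE. Under ISO both dTip60E431Q arrays were below both control arrays, by a mean of -0.65 (SE 0.32, interval -1.41 to 0.12, limma adjusted p = 0.471). Under EE the genotypes overlapped and differed by 0.07 (SE 0.32, interval -0.70 to 0.84, adjusted p = 0.981).

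Tm2 encodes a muscle tropomyosin, which lies along the thin filament. Log2 signals of Tm2 were 10.81 and 11.15 in control ISO, 10.87 and 11.04 in control EE, 10.39 and 10.38 in dTip60E431Q ISO, and 10.28 and 11.45 in dTip60E431Q EE. As for up, both dTip60E431Q ISO arrays lay below control ISO (-0.60, SE 0.34, interval -1.41 to 0.22, limma adjusted p = 0.526), and the dTip60E431Q EE arrays spanned the whole range of the gene. The Tm2 probe set is of a type that can match several transcripts, so its signal may hold more than 1 gene's mRNA.

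Act88F, the actin of indirect flight muscle thin filaments, was higher on both dTip60E431Q arrays than on both control arrays in each housing. The arrays gave log2 signals of 7.64 and 8.53 in control ISO and 5.94 and 7.70 in control EE. It was 9.46 and 9.58 in dTip60E431Q ISO and 8.13 and 8.91 in dTip60E431Q EE. The control EE arrays were 1.76 apart, the widest gap between replicates for a member in the control groups.

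The genotype difference of Act88F was 1.44 under ISO (SE 0.58, interval 0.06 to 2.81, limma unadjusted p = 0.0426, adjusted p = 0.364) and 1.70 under EE (SE 0.58, interval 0.33 to 3.07, unadjusted p = 0.0221, adjusted p = 0.567). The under-EE difference fell to 0.82 without control EE replicate 1 and rose to 2.58 without control EE replicate 2. EE minus ISO was -1.26 in control (SE 0.58, adjusted p = 0.839) and -1.001 in dTip60E431Q (SE 0.58, adjusted p = 0.741), and the interaction was 0.26 (interval -1.68 to 2.20). The control difference was -0.38 without control EE replicate 1 and -2.14 without replicate 2, and the dTip60E431Q difference was -0.61 without dTip60E431Q EE replicate 1 and -1.39 without replicate 2. In control the EE and ISO arrays overlapped, whereas in dTip60E431Q both EE arrays were below both ISO arrays. Act88F and Tm2 lie on 1 chromosome arm with 36 genes between them, and their values over the 8 arrays had a Pearson r of -0.22.

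The mean log2 signal of the photoreceptor and eye list (5 of 12 genes measured) was 10.44 and 11.42 in control ISO, 10.43 and 11.70 in control EE, 11.93 and 11.92 in dTip60E431Q ISO, and 11.44 and 11.52 in dTip60E431Q EE. This list and Act88F were both highest in dTip60E431Q ISO, and in each control group both were lower in replicate 1. They parted on control EE replicate 2, where the list was above control ISO and dTip60E431Q EE and Act88F was below control ISO replicate 2 and both dTip60E431Q EE arrays. The part of these cells in the Act88F result was not tested.

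The thick filament was represented by both myosin light chains and by flightin. Mlc1 encodes the muscle alkali light chain. The Mlc1 log2 signal was 11.03 and 11.29 in control ISO, 10.93 and 11.17 in control EE, 10.74 and 10.70 in dTip60E431Q ISO, and 10.75 and 11.77 in dTip60E431Q EE. Control ISO and EE overlapped, and EE minus ISO was -0.11 in control (SE 0.30, interval -0.83 to 0.61, limma adjusted p = 0.993).

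Mlc2 encodes the regulatory light chain. Log2 signals of Mlc2 were 10.59 and 10.85 in control ISO, 10.38 and 10.83 in control EE, 10.32 and 10.15 in dTip60E431Q ISO, and 10.57 and 11.41 in dTip60E431Q EE. In dTip60E431Q both EE arrays were above both ISO arrays, and EE minus ISO was 0.76 (SE 0.29, interval 0.08 to 1.44, limma unadjusted p = 0.0328, adjusted p = 0.554). This difference was 1.18 without dTip60E431Q EE replicate 1 and 0.34 without replicate 2. Under ISO the dTip60E431Q arrays of both light chains were below the control arrays, by -0.44 for Mlc1 (adjusted p = 0.604) and by -0.49 for Mlc2 (adjusted p = 0.532).

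fln encodes flightin, a myosin-binding protein needed for flight muscle thick filaments. It was the member with the smallest spread and the only one lower on both EE arrays than on both ISO arrays in each genotype. Its log2 signal was 7.56 and 7.24 in control ISO, 7.12 and 7.11 in control EE, 7.37 and 7.37 in dTip60E431Q ISO, and 6.93 and 6.99 in dTip60E431Q EE. EE minus ISO was -0.29 in control (SE 0.13, interval -0.59 to 0.02, limma unadjusted p = 0.0598, adjusted p = 0.839). This was -0.13 without control ISO replicate 1 and -0.45 without replicate 2. It was -0.41 in dTip60E431Q (SE 0.13, interval -0.71 to -0.11, unadjusted p = 0.0151, adjusted p = 0.453). The interaction was -0.12 (interval -0.55 to 0.31, adjusted p = 0.871).

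**Figure D2:**
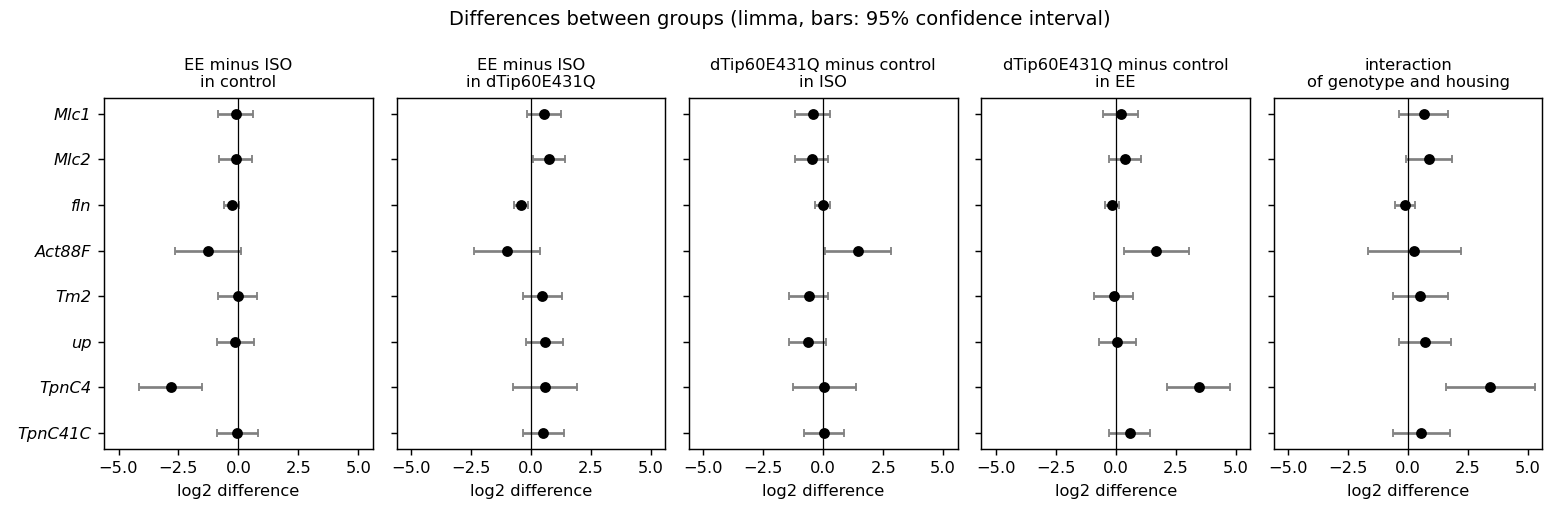
Log2 differences (horizontal axis, in log2 units) of the 8 sarcomere genes in the 5 comparisons, with 95% confidence intervals from limma as bars. The intervals of TpnC4 exclude 0 in control EE against ISO (-2.83), in dTip60E431Q against control under EE (3.47) and in the interaction (3.42), and no adjusted p was under 0.05.

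As a group, the sarcomere genes were read against all probe sets in each comparison. For EE against ISO in control, 0.0906% of probe sets were called after adjustment and 4.41% at the unadjusted threshold, and of the 8 members 0 and 1 (TpnC4, lower) were. The unadjusted share was 2.38% higher and 2.03% lower. All 8 members had a difference below 0, with a median of -0.13, while 45.0% of all probe sets were above 0 and their median was -0.02. This count rested on single arrays: it was 4 of 8 without control ISO replicate 2 and 3 of 8 without control EE replicate 1, and the median was then -0.03 and 0.00. The arrays of 2 members, fln and TpnC4, did not overlap and were lower under EE, against 16.9% of all probe sets.

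For EE against ISO in dTip60E431Q, 0.448% of probe sets were called after adjustment and 6.15% without it, and of the members 0 and 2 (Mlc2 higher, fln lower). Mlc1, Mlc2 and TpnC41C were higher on both EE arrays (21.3% of all probe sets were), and fln and Act88F were lower on both (20.5% of all). The median of the members was 0.53 and that of all probe sets 0.01. Without dTip60E431Q EE replicate 2 the median was -0.04, and without replicate 1 it was 1.06. The members past the unadjusted threshold also changed with the array left out. Without either dTip60E431Q ISO array no member passed the unadjusted threshold.

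For dTip60E431Q against control under ISO, 0.799% of probe sets were called after adjustment and 10.1% without it, and of the members 0 and 1 (Act88F, higher). Mlc1, Mlc2, Tm2 and up were lower on both dTip60E431Q arrays, 4 of 8 members against 20.6% of all probe sets, and Act88F was higher on both, as were 23.8% of all. Which members passed the unadjusted threshold, and in which direction, changed with the array left out. This held also for the dTip60E431Q EE arrays, which enter this comparison only through the shared spread. The Act88F difference was 0.99 without control ISO replicate 1 and 1.88 without replicate 2. The median of the members was -0.24 and that of all probe sets -0.00.

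For dTip60E431Q against control under EE, 0.181% of probe sets were called after adjustment and 5.09% without it, and of the members 0 and 2 (TpnC4 and Act88F, higher). The unadjusted share was 2.43% higher and 2.66% lower. The same members did not overlap between the groups and were higher (21.2% of all probe sets were), and fln was lower (16.3% of all). The median of the members was 0.30, against 0.03 for all. Without dTip60E431Q EE replicate 1 the median was 0.77, and without replicate 2 it was -0.11. Which members passed the unadjusted threshold changed with the array left out. For the interaction, 0.671% of probe sets were called after adjustment and 10.2% without it, and of the members 0 and 1 (TpnC4, higher). Of all probe sets, 5% were higher and 5.19% lower at the unadjusted threshold. Comparisons that share arrays are not independent of each other.

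The members did not move as 1 block. Over the 8 arrays, Mlc1, Mlc2, Tm2 and up ran together, with Pearson r between 0.84 and 0.97 in their 6 pairs, and TpnC41C followed them with r down to 0.57. TpnC4 and Act88F had an r of 0.76 with each other, and fln had r between -0.50 and 0.20 with the other members. These are descriptions over arrays that share groups and a normalization. Mlc1, Mlc2, Tm2, up, TpnC4 and TpnC41C were all highest on dTip60E431Q EE replicate 2. Act88F was highest on dTip60E431Q ISO replicate 2 and fln on control ISO replicate 1.

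The gap between the arrays of dTip60E431Q EE was shared by the members other than fln. For fln it was 0.06, between the quartiles of all probe sets (-0.24 and 0.08). In that group replicate 2 was higher than replicate 1 for 8 of 8 members, with a median gap of 0.95 (range 0.06 to 1.97), while over all probe sets 34.7% were higher in replicate 2 and the median was -0.09. In control ISO and control EE replicate 2 was higher for 7 of 8 members each, with medians of 0.26 and 0.36, against 36.3% and 48.2% of all probe sets, with medians of -0.10 and -0.01. In dTip60E431Q ISO it was higher for 3 of 8, with a median of -0.02, against 50.9% of all probe sets. On replicates 1 and 2 the neuron list (11 of 12 genes measured) averaged 11.30 and 11.04 in dTip60E431Q EE. It averaged 11.35 and 11.08 in control ISO, 11.07 and 11.13 in control EE, and 11.14 and 11.11 in dTip60E431Q ISO. The Kenyon neuron list (12 of 15) gave 9.10 and 8.89, 9.21 and 8.97, 9.16 and 9.10, 8.93 and 8.90, in that order. The part of these cells in the gaps was not tested. For Mlc1, Mlc2, Tm2, up, TpnC4 and TpnC41C the SD of dTip60E431Q EE was the largest of the 4 groups, and the shared spread behind the intervals above includes it.

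**Figure D3:**
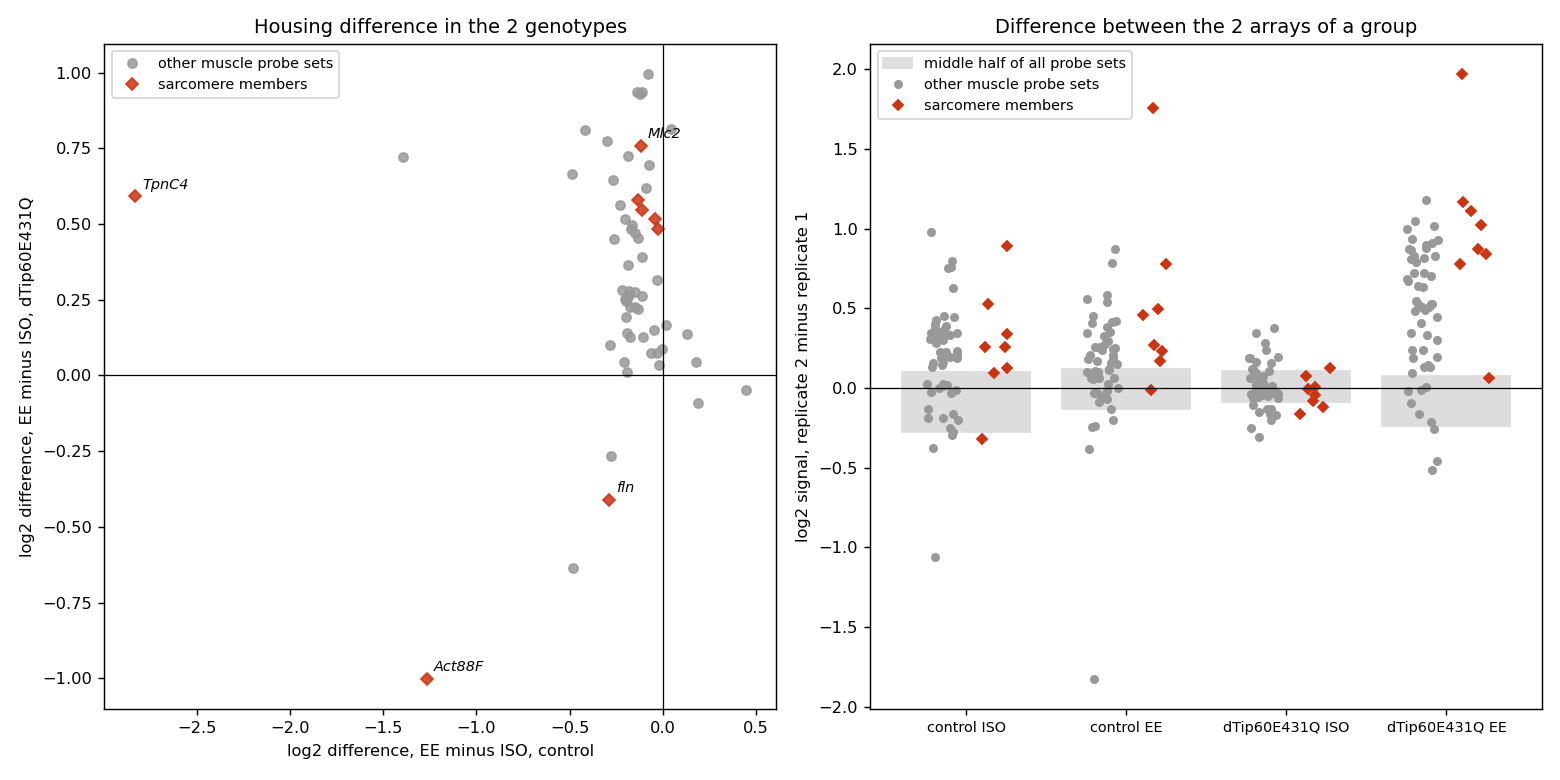
Left, EE minus ISO in control (horizontal axis) against EE minus ISO in dTip60E431Q (vertical axis), in log2 units, for the 8 sarcomere genes (red diamonds) and 53 probe sets of other muscle genes (grey circles). Right, log2 signal of replicate 2 minus replicate 1 in each group, with grey boxes from the lower to the upper quartile of all probe sets. In dTip60E431Q EE all 8 sarcomere genes lie above 0, with a median of 0.95.

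Other muscle genes were read from 4 lists that held 32 genes, of which 25 had 53 probe sets of their own. Of all probe sets, 45.0%, 52.4%, 49.3% and 57.0% were above 0 in the 4 comparisons that follow, in that order. For EE against ISO in control, 6 of 53 were above 0 and the median was -0.17, with 1 lower at the unadjusted threshold. The median was -0.04 without control ISO replicate 2 and -0.05 without control EE replicate 1. For EE against ISO in dTip60E431Q, 49 of 53 were above 0, the median was 0.27, and 11 were higher and 1 lower at the unadjusted threshold (2.69% and 3.47% of all probe sets). The count of higher probe sets rose without dTip60E431Q EE replicate 1 or either control ISO array. It fell without dTip60E431Q EE replicate 2, either control EE array or either dTip60E431Q ISO array. The median was 0.47 and 0.11 without replicates 1 and 2 of dTip60E431Q EE. For dTip60E431Q against control under ISO, 45 of 53 were below 0, the median was -0.30, and 18 were lower and 1 higher at the unadjusted threshold (4.9% and 5.24% of all). The count of lower probe sets fell without any array of control ISO, control EE or dTip60E431Q ISO and rose without either dTip60E431Q EE array. The median stayed between -0.40 and -0.27 over all arrays left out in turn. Under EE, 41 of 53 were above 0 and the median was 0.10, with 2 higher and none lower, and the median was -0.13 without dTip60E431Q EE replicate 2. After adjustment 0 of these 53 probe sets were called by limma in each of these 4 comparisons.

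The 4 lists were also read by role, with no test of a difference between them. Probe sets of 1 gene are not independent. The Z-disc and attachment list had 17 from 8 genes and the thick filament and titin-like list 18 from 6. The thin filament list had 7 from 5 genes, and the muscle calcium, energy and fate list 11 from 6. Of all probe sets, 49.3% were above 0 in dTip60E431Q against control under ISO and 52.4% in EE against ISO in dTip60E431Q. The Z-disc and attachment list had 17 of 17 probe sets below 0 in dTip60E431Q against control under ISO (median -0.43, 9 lower at the unadjusted threshold) and 17 of 17 above 0 in EE against ISO in dTip60E431Q (median 0.32, 5 higher). The thick filament and titin-like list had 15 of 18 below 0 in the former (median -0.45, 6 lower) and 18 of 18 above 0 in the latter (median 0.45, 4 higher). Without dTip60E431Q EE replicate 2 the latter was 15 of 17 and 10 of 18. Leaving out an array moved the counts at the unadjusted threshold. The 9 and 6 lower fell without any array of control ISO, control EE or dTip60E431Q ISO and rose without either dTip60E431Q EE array. The 5 and 4 higher rose without dTip60E431Q EE replicate 1 and fell without replicate 2 or either dTip60E431Q ISO array. The 4 higher also fell without either control EE array. The thin filament list had 6 of 7 below 0 in the former (median -0.20, 3 lower and 1 higher) and 5 of 7 above 0 in the latter (median 0.25, 2 higher and 1 lower). Its counts were also small without any 1 array. The list of muscle calcium, energy and fate genes had medians of -0.02 and 0.07 in these comparisons, with none of 11 past the unadjusted threshold. Both comparisons use the dTip60E431Q ISO arrays. On these the midgut, fat body and photoreceptor and eye lists were higher than in control ISO and dTip60E431Q EE, and the part of those cells was not tested.

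Mlp60A, a muscle LIM protein of the Z-disc region, had the smallest unadjusted p of the listed muscle genes in both of these comparisons. Its log2 signal was 11.63 and 11.60 in control ISO, 11.55 and 11.52 in control EE, 10.68 and 10.69 in dTip60E431Q ISO, and 11.35 and 12.02 in dTip60E431Q EE. Both dTip60E431Q ISO arrays lay below all 6 others. The difference was -0.93 against control ISO (SE 0.20, limma unadjusted p = 0.00275, adjusted p = 0.127) and 0.99 for EE minus ISO in dTip60E431Q (SE 0.20, adjusted p = 0.186). The former was called without either dTip60E431Q EE array, and the latter without dTip60E431Q EE replicate 1. The other probe sets of Mlp60A had log2 signals of at most 5.74, below the median of probe set means.

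Mf, which encodes the thick filament protein myofilin, had log2 signals of 11.47 and 11.82 in control ISO, 11.44 and 11.56 in control EE, 10.60 and 10.60 in dTip60E431Q ISO, and 11.14 and 11.93 in dTip60E431Q EE on 1 of its probe sets. Under ISO it was lower in dTip60E431Q by -1.04 (SE 0.25, limma adjusted p = 0.156). The Z-disc gene Zasp66 differed by -0.85 (SE 0.23, adjusted p = 0.188) and Msp300, a giant nesprin-like protein, by -0.68 (SE 0.17, adjusted p = 0.173) on the probe sets with the smallest p. Other probe sets of these genes had smaller differences: -0.79 for Mf, -0.82 and -0.28 for Zasp66, and between -0.43 and -0.15 for Msp300.

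The other muscle actins split. Act79B, like Act88F, was highest in dTip60E431Q ISO, with log2 signals of 9.19 and 9.35 in control ISO, 8.35 and 9.23 in control EE, 9.90 and 10.08 in dTip60E431Q ISO, and 9.44 and 9.27 in dTip60E431Q EE. It was higher in dTip60E431Q under ISO by 0.72 (SE 0.26, limma unadjusted p = 0.0299, adjusted p = 0.320). Act87E, like the myosin light chains, had its lowest mean in dTip60E431Q ISO, with log2 signals of 9.94 and 10.29, 9.55 and 9.84, 9.36 and 9.37, and 9.91 and 10.44 in the same groups and a difference of -0.75 under ISO (SE 0.21, adjusted p = 0.204). The Act87E probe set can match several transcripts, and actin genes are similar in sequence, so its signal may not come from this gene alone.

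**Figure D4:**
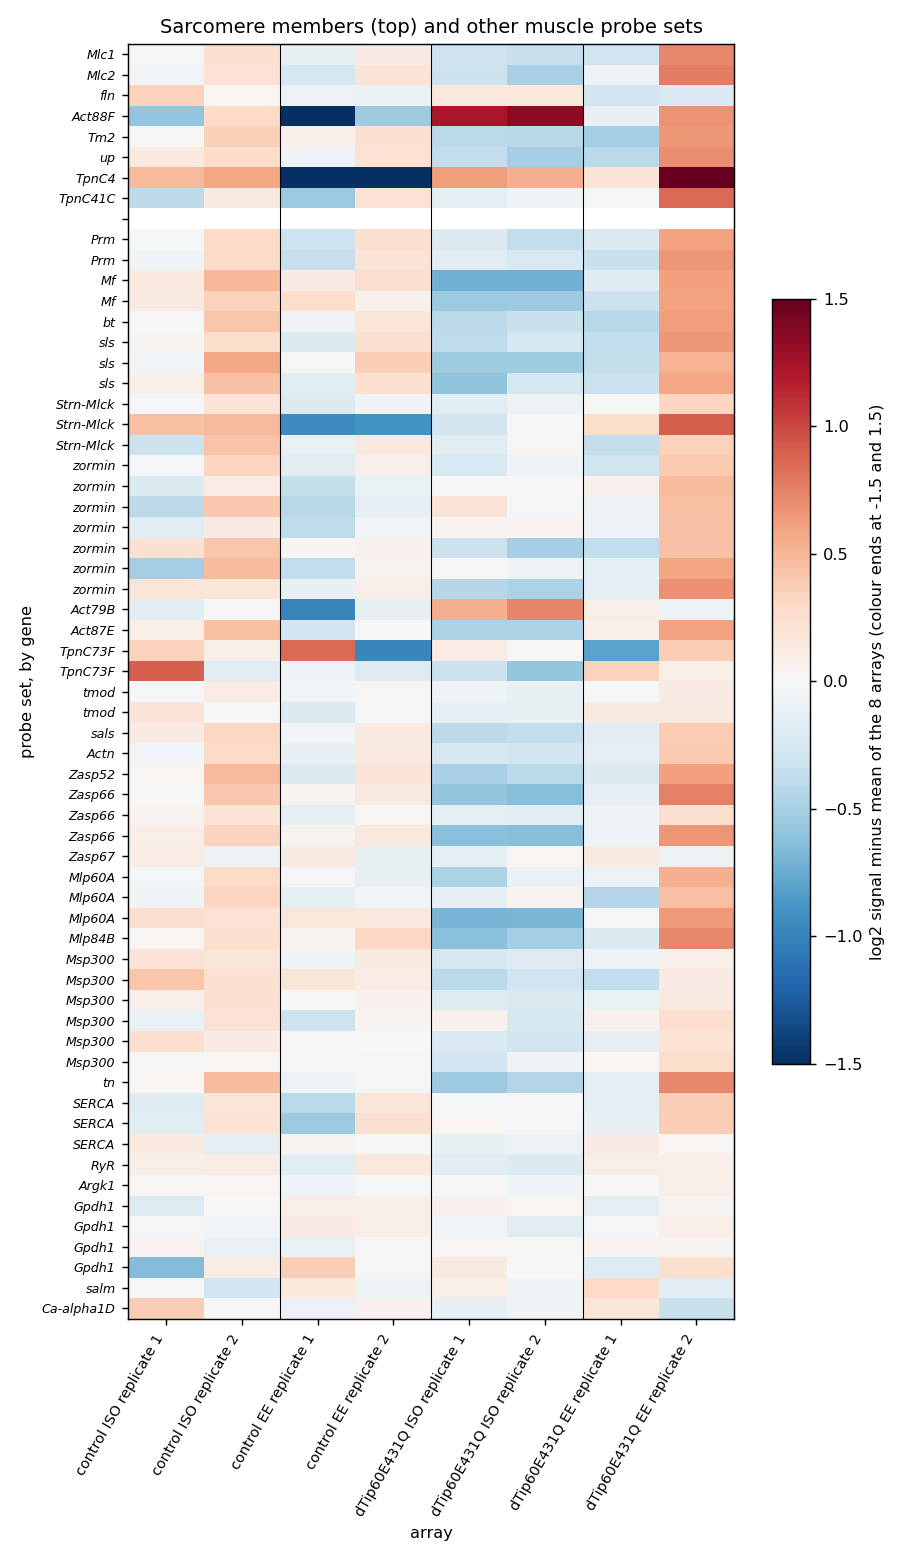
Log2 signal minus the mean of the 8 arrays, by array (columns) for the probe sets of the 8 sarcomere genes (top rows) and 53 probe sets of other muscle genes (lower rows), with the colour scale ending at -1.5 and 1.5. Most rows are red on dTip60E431Q EE replicate 2 and blue on both dTip60E431Q ISO arrays, while Act88F, Act79B and TpnC4 are among those red on the latter. TpnC4 on both control EE arrays and Act88F on control EE replicate 1 are the darkest blue.

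The genes most like the sarcomere genes were ranked by Pearson r with the mean of the members' centred values over the 8 arrays, among 3760 genes. That mean gives most weight to TpnC4 and Act88F, the members with the widest spread. It was lowest on control EE replicate 1 (-0.73) and highest on dTip60E431Q EE replicate 2 (0.79). Each gene was ranked by its probe set with the highest r. The titin-like gene zormin, which has several probe sets, had an r of 0.96 on the best of them. AMPdeam, an AMP deaminase, had 0.93, COX5BL, related by name to cytochrome c oxidase, had 0.91, and NLaz, a lipocalin, had 0.90. Hsc70-1, of the heat shock cognate family, had 0.89, and CG9864, CG7069 and CG34290 had 0.96, 0.93 and 0.90.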

How the data were processed

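The authors hybridized biotin-labelled cRNA from sorted cells to Affymetrix Drosophila arrays and deposited 1 log2 value per probe set, made with RMA (background correction, quantile normalization and probe set summary). No source used here names the RMA version. RMA values of low signal are compressed or unstable, and no detection call was used.

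The log2 values were used as deposited. After 183 control probe sets were left out, 18769 were tested, of which 13647 had 1 gene symbol, 402 several and 4720 none. Symbols came from the array annotation, and updating them changed 0. Groups came from the sample titles. Differences were fitted with limma 3.58.1 in R 4.3.3 with group means and 1 pooled spread (4 residual and 2.91 prior degrees of freedom). Calls were made at a Benjamini-Hochberg adjusted p under 0.05 over all probe sets with a fold of 1.3 or more. The methods' t-test was an alternative, beside cyclic loess, only the arrays compared, a mean-variance trend, a replicate block, dim probe sets left out (mean below 6.46), 1 probe set per gene, the dTip60E431Q ISO arrays averaged, and each array left out in turn. On simulated data of EE versus ISO in control (18769 probe sets), limma called 59% of 2-fold and 93% of 4-fold changes after adjustment, and 3 unchanged probe sets. The noise was drawn separately for each probe set and array. Replicate gaps shared by many genes, as among the members, were not simulated, so these shares may not hold for the members.

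The members and lists were chosen with earlier results of these data known. Named were all members, Tip60, up to 4 other muscle genes per comparison by smallest unadjusted p, not all of which are described, and the 8 genes most like the members. Act79B was described after its values were seen. A listed gene, Sln, was dropped because that symbol names a transporter in the annotation. The number of arrays limits the precision.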

Additional observations from a re-analysis of the deposited data

Results flagged for a closer look

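The probe set of Strn-Mlck with the smallest p, for a muscle kinase of the titin-like family, was the 1 muscle probe set whose housing response differed between the genotypes after adjustment. Over all probe sets 0.671% were called in this interaction. Of the 53 other muscle probe sets 49 were above 0 in it (54.8% of all), and 12 were higher at the unadjusted threshold (5% of all). Their median was 0.44, and 0.24 without dTip60E431Q EE replicate 2. The log2 signal of this Strn-Mlck probe set was 5.84 and 5.87 in control ISO, 4.43 and 4.49 in control EE, 5.11 and 5.39 in dTip60E431Q ISO, and 5.65 and 6.29 in dTip60E431Q EE. EE minus ISO was -1.39 in control (SE 0.21, limma adjusted p = 0.157) and 0.72 in dTip60E431Q (SE 0.21, adjusted p = 0.409), and the interaction was 2.12 (SE 0.30, interval 1.41 to 2.82, adjusted p = 0.0374). Like TpnC4, it was lowest on both control EE arrays. Over the alternatives the adjusted p of the interaction ranged from 0.0119 to 0.232. It was 0.0849 with cyclic loess, 0.195 with the dTip60E431Q ISO arrays averaged, 0.0701 without control ISO replicate 1, 0.160 and 0.131 without control EE replicates 1 and 2, and 0.232 and 0.159 without dTip60E431Q ISO replicates 1 and 2. The other probe sets of Strn-Mlck had interactions of 0.50 (adjusted p = 0.479) and 0.10 (adjusted p = 0.963). The signal was below the median of probe set means on every array, and the cause was not tested.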

How the results depend on the processing

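The differences of 8 sarcomere genes in 5 comparisons, 40 in all, kept their direction under cyclic loess, only the arrays compared, a mean-variance trend, the replicate block, dim probe sets left out, 1 probe set per gene and averaged dTip60E431Q ISO arrays, with no call under any of these. TpnC4 is not in the fit without dim probe sets, and the interaction has no fit on only the arrays compared. With an array left out, 23 kept their direction throughout and the other 17 changed sign. For EE minus ISO in control the lowest and highest values were -0.24 and 0.019 for Mlc1, -0.35 and 0.11 for Mlc2, -0.19 and 0.15 for Tm2, -0.27 and 0.00081 for up, and -0.43 and 0.35 for TpnC41C. For EE minus ISO in dTip60E431Q they were -0.10 and 1.07 for Tm2, and -0.39 and 1.58 for TpnC4. Under ISO, dTip60E431Q minus control was -0.19 to 0.13 for fln, -0.0032 to 0.0902 for TpnC4 and -0.24 to 0.29 for TpnC41C. Under EE it was -0.30 to 0.72 for Mlc1, -0.030 to 0.81 for Mlc2, -0.67 to 0.49 for Tm2 and -0.48 to 0.62 for up. The interaction was -0.28 to 0.037 for fln, -0.62 to 1.14 for Act88F and -0.076 to 1.09 for Tm2. No sarcomere gene was called in limma. At its unadjusted threshold 1, 2, 1, 2 and 1 were, in the order EE against ISO in control, the same in dTip60E431Q, genotype under ISO, genotype under EE, and interaction. The methods' t-test found 1 in each of the first 3 comparisons without adjustment (TpnC4, fln and up) and 0 under EE. After Benjamini-Hochberg it found 0, as it did for 2-fold and 4-fold changes alike in the simulated data, so that count carries no information. With an array left out the count of calls ranged from 0 to 1 in EE against ISO in control, in genotype under EE and in the interaction, the 1 being TpnC4 without either dTip60E431Q EE array. The replicate numbers were not taken to pair the samples, since the deviations of same-numbered arrays correlated between -0.09 and 0.31, with 2 of 6 pairs of groups over 0.1. With the replicate number as a block 0 members were called in each comparison, and over all probe sets 9 in place of 17 were called for EE against ISO in control and 95 in place of 84 in dTip60E431Q. With 2 arrays per group a 2-fold difference can be missed, and for TpnC4 low signal also limits the size of the difference.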
